A study of Bos taurus with 22 samples.

Results

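The miR-10 family of bovine plasma was represented by bta-miR-10a and bta-miR-10b, 2 of the 844 mature miRNAs in the deposited read count table, chosen by name. Plasma was taken from the jugular vein of 11 pregnant Holstein-Friesian heifers, in the second year of life, on the day of insemination (Day 0, not yet pregnant) and again on Day 60 of pregnancy, which gave 22 small RNA libraries. All heifers had been oestrus-synchronised and inseminated, so both days share that treatment, and day of pregnancy and time of collection cannot be told apart. Each heifer is its own control. Total miRNA reads ran from 1912290 to 6839128 per Day 0 library (median 4536808) and from 304117 to 12775451 per Day 60 library (median 7597827). Levels are given as RPMM, the reads of a miRNA per 1000000 miRNA reads of its library.

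miRNAs guide the silencing of messenger RNAs that pair with their first bases, the seed. miR-10a and miR-10b are ancient members of the HOX clusters, the gene arrays that pattern the body axis of the embryo, and are transcribed within them in the same direction as their host genes. Their mature forms share a seed and differ by a single internal base. In human cells miR-10b is known to repress HOXD10 and miR-10a to dampen inflammatory signalling in endothelium, and both are found in blood plasma.

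By the positions in the files, on the bosTau4 assembly, miR-10a lies on the plus strand of chromosome 19 from 39116904 to 39116926, and miR-10b on the minus strand of chromosome 2 from 21426250 to 21426272. Both mature forms span 23 bases. In the RefSeq gene table of another assembly, ARS-UCD2.0, the hairpin gene of miR-10a lies inside the span of HOXB3, with HOXB4 and HOXB5 as the next HOX genes, and that of miR-10b lies inside the span of HOXD4, with HOXD3 next. The authors allowed a mismatch when reads were assigned to miRNAs, so a read of either member could have been counted for the other, and the size of any such exchange was not tested.

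miR-10b was among the most abundant plasma miRNAs and miR-10a was several times lower. By mean RPMM over the 22 libraries miR-10b ranked 6, between miR-143 (41902 RPMM) and miR-142-5p (35656 RPMM), at 40171 RPMM itself. miR-10a ranked 28, at 6999 RPMM, between miR-27a-3p (7668 RPMM) and miR-30a-5p (6808 RPMM). Of all miRNA reads, the members together held 5.66 ± 1.76% on Day 0 and 3.78 ± 1.66% on Day 60 (SD, n = 11). No library was without either: the fewest reads were 3335 for miR-10b and 657 for miR-10a, both in the Day 60 library of heifer 17, the shallowest of the 22. Both members passed the filter on low values described next.

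miR-10b had a lower mean on Day 60, while miR-10a had nearly the same mean on both days. On Day 0 miR-10b ran from 22828 RPMM in heifer 32 through a median of 51333 to 71853 RPMM in heifer 26. On Day 60 it ran from 10966 RPMM in heifer 17 through a median of 27404 to 58430 RPMM in heifer 26. The days overlapped, with 5 Day 60 libraries below the lowest Day 0 library and 4 Day 0 libraries above the highest Day 60 library. The mean went from 49523 ± 16816 to 30820 ± 14972 RPMM (SD, n = 11), and 9 of 11 heifers were lower on Day 60. The other two, heifers 31 and 32, had levels 1.09 and 1.51 times those of Day 0, and their Day 0 levels were among the 3 lowest. Heifers 17, 29, 10 and 11 lay at the other end, with Day 60 levels of 0.182, 0.310, 0.399 and 0.398 times Day 0.

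miR-10a behaved differently in the same libraries. On Day 0 it ran from 4279 RPMM in heifer 12 through a median of 7356 to 8517 RPMM in heifer 24. On Day 60 it ran from 2160 RPMM in heifer 17 through a median of 7660 to 9885 RPMM in heifer 24. Most Day 60 libraries therefore lay inside the Day 0 range, with 2 below it (heifers 17 and 14) and 2 above it. The mean was 7037 ± 1160 RPMM on Day 0 and 6960 ± 2205 RPMM on Day 60 (SD, n = 11), and 8 of 11 heifers were higher on Day 60. On Day 60 heifer 17 had 0.279 and heifer 14 had 0.529 times the Day 0 level, while heifer 12 had 1.41 times.

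**Figure D1:**
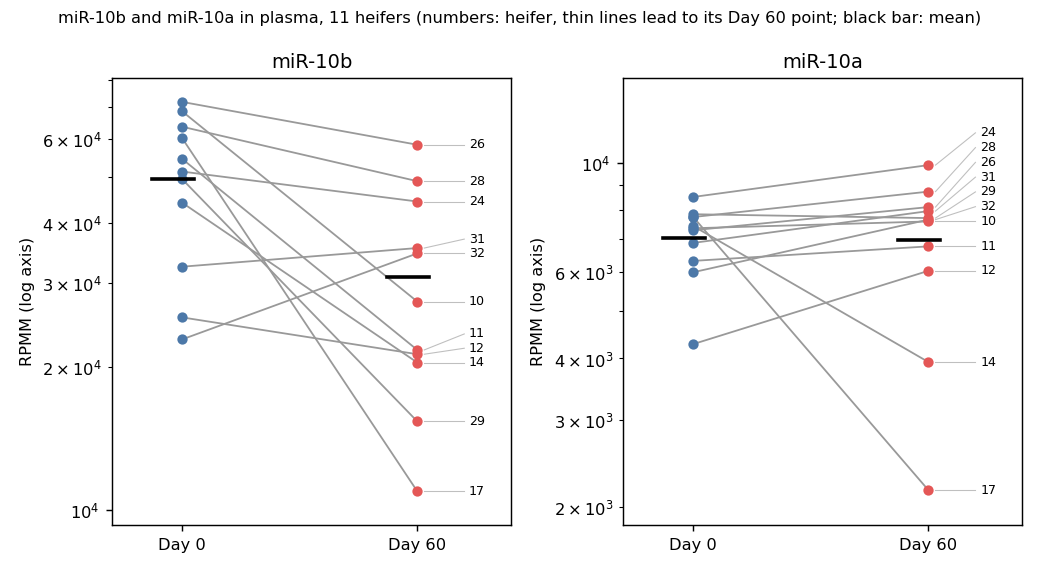
Level of miR-10b (left) and miR-10a (right) in RPMM on a log axis in each of 22 libraries, with a line for each of 11 heifers, heifer numbers at Day 60 and a black bar for the mean of each day. The mean of miR-10b went from 49523 to 30820 RPMM, and that of miR-10a from 7037 to 6960 RPMM, with heifer 17 lowest for both on Day 60.

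Neither member passed the test of Day 60 against Day 0 across all miRNAs. The test was edgeR's quasi-likelihood test on the counts, blocked by heifer and normalised by TMM. The test took in the 195 miRNAs that exceeded 25 RPMM in over 8 of the 11 libraries of at least one day, and FDR is the Benjamini-Hochberg adjusted p over them, with a threshold of 0.05. Of the 195, 69 passed (35.4%), 34 higher (17.4%) and 35 lower (17.9%) on Day 60. For miR-10b the log2 fold-change was -0.56 with an SE of 0.25 (unadjusted p = 0.0412, edgeR FDR 0.0894). TMM-normalised reads of miR-10b were lower in 9 of 11 heifers, a count reached or passed by 24.1% of tested miRNAs. For miR-10a it was 0.11 with an SE of 0.20 (edgeR FDR 0.671), and 8 of 11 heifers were higher.

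The call on miR-10b turned with the scaling and the tool. With library totals in place of TMM its log2 fold-change was -0.75 (edgeR FDR 0.0302), with upper quartile scaling -0.73 (edgeR FDR 0.0441) and with DESeq2 -0.50 (FDR 0.0443). With scaling to miR-128, which the study used beside a spike-in to normalise RT-qPCR and not sequencing, it was -0.48 (edgeR FDR 0.220). These scalings moved all miRNAs together: the median log2 fold-change of the 195 was -0.06 with TMM, -0.22 with upper quartile scaling, -0.25 with totals and 0.02 with miR-128. The miRNAs past the threshold were 11 higher and 57 lower with totals, 35 and 20 with miR-128, and 21 and 58 with upper quartile scaling. Measured from that median, miR-10b lay between -0.50 and -0.49 under 6 scalings and miR-10a between 0.17 and 0.19. A scaling factor moves every miRNA of a library alike, so that distance is nearly fixed by construction. The sign of the miR-10a fold-change itself changed with library totals (-0.075, edgeR FDR 0.786).

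**Figure D2:**
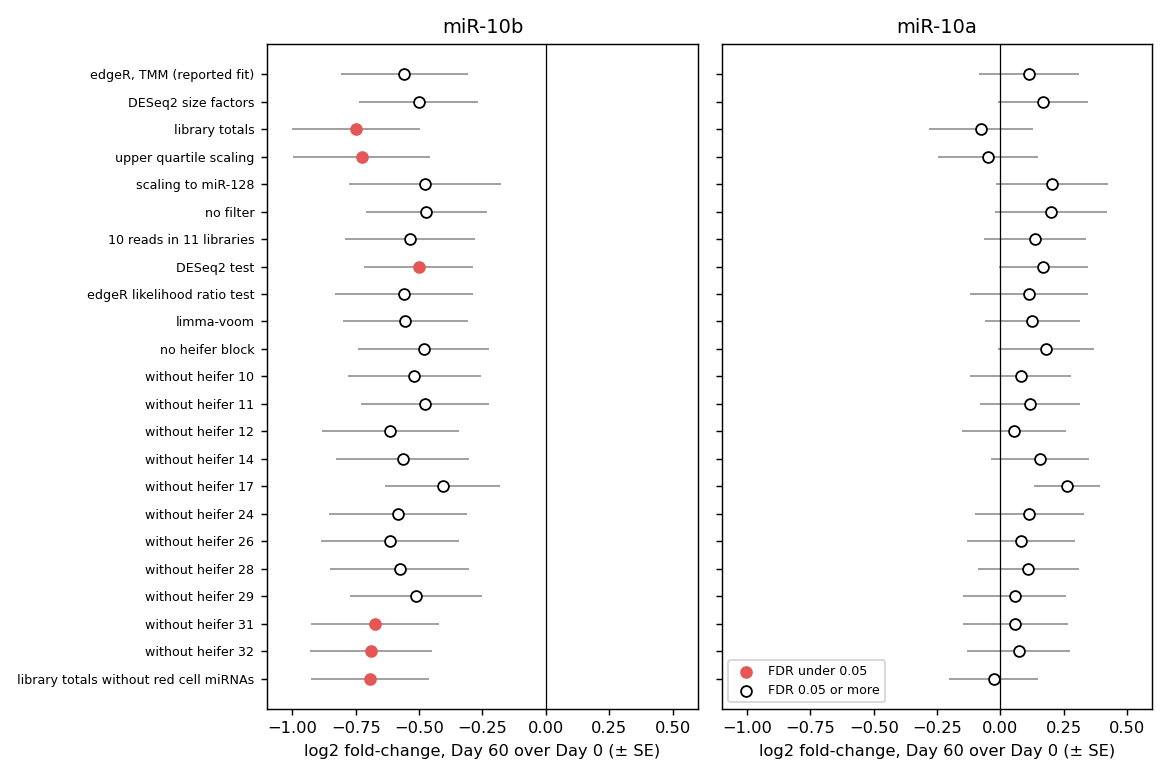
Log2 fold-change of miR-10b (left) and miR-10a (right), Day 60 over Day 0, with SE, in the reported fit and under 22 alternatives. Filled points have an FDR under 0.05: miR-10b was negative in all of them and passed in 6, and miR-10a passed in none.

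Heifer 17 had the largest influence on both members, and leaving out heifer 31 or 32 changed the call on miR-10b. Without heifer 17 the log2 fold-change of miR-10a was 0.26 (edgeR FDR 0.129) and that of miR-10b was -0.41 (edgeR FDR 0.178). Without heifer 31 or heifer 32, those in which miR-10b was higher on Day 60, it was -0.67 (edgeR FDR 0.0485) or -0.69 (edgeR FDR 0.0286). Without any of the other heifers in turn it did not pass. Leaving out a heifer that moved the other way deepens the mean fall by construction. Of all 195 tested miRNAs, 75 passed without heifer 31 and 97 without heifer 32, beside 69 with every heifer.

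The balance between the members shifted from miR-10b to miR-10a on Day 60. The ratio of miR-10b reads to miR-10a reads is taken within a library, so it does not depend on how libraries are scaled. On Day 0 it ran from 3.81 in heifer 32 through a median of 6.30 to 9.86 in heifer 26, and on Day 60 from 1.99 in heifer 29 through a median of 4.49 to 7.19 in heifer 26. The days overlapped, with 4 Day 60 libraries below every Day 0 library and 5 Day 0 libraries above every Day 60 library. The ratio was lower on Day 60 in 10 of 11 heifers, heifer 32 being the exception. In the fit above 17.4% of tested miRNAs were higher and 17.9% lower, and how often other pairs shift as far was not tested. The mean log2 ratio fell by 0.66 ± 0.60 (SD, n = 11) within heifers, to 0.632 times the Day 0 ratio (exact sign-flip permutation test over heifers, two-sided p = 0.00391). Leaving out each heifer in turn gave a mean from -0.75 to -0.56 with p from 0.00195 to 0.00781 (exact sign-flip permutation test).

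The shift differed in size between heifers. It was deepest in heifers 29, 11 and 10, whose Day 60 ratios were 0.316, 0.372 and 0.387 times those of Day 0, and shallow in heifers 31 and 14 at 0.943 and 0.873 times. Heifer 32 moved the other way, at 1.18 times. In heifer 17 both members were far lower on Day 60, and its ratio, 7.78 on Day 0 and 5.08 on Day 60, lay in the middle of the series. As a share of the reads of both members, miR-10a went from 13.3 ± 3.54% to 19.6 ± 5.67% (SD, n = 11).

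**Figure D3:**
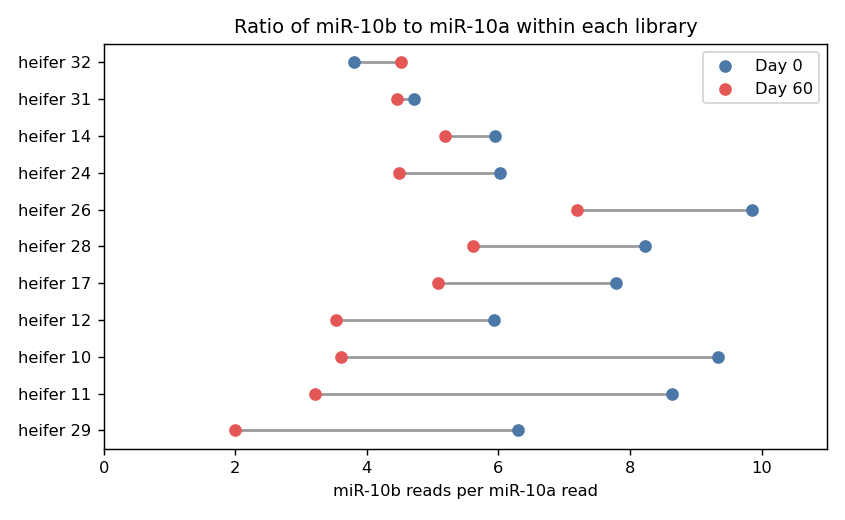
Reads of miR-10b per read of miR-10a within each library, Day 0 and Day 60 joined for each of 11 heifers and ordered by the change. The Day 60 point lies to the left of the Day 0 point in 10 of 11 heifers, from 6.30 to 1.99 in heifer 29 at the bottom, and to the right in heifer 32 at the top.

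On the scale of library totals, the log2 RPMM of miR-10b fell by 0.76 ± 0.90 within heifers (SD, n = 11, exact sign-flip permutation test, two-sided p = 0.0215). That of miR-10a changed by a mean of -0.09 ± 0.68 (SD, n = 11, exact sign-flip permutation test, two-sided p = 0.722). This scale includes the shift of all miRNAs given above.

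miR-10a was one of the steadier plasma miRNAs on Day 0 and miR-10b was not. The CV of miR-10a over 11 Day 0 libraries was 16.5% of its mean RPMM, which ranked 12 from the lowest of 195 tested miRNAs, against a median CV of 29.7%. That of miR-10b was 34.0%, at rank 132. On Day 60 both varied more, at 31.7% and 48.6%, beside a median of 38.2% over all tested miRNAs.

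Across heifers the levels of both members were related on Day 60 by Pearson's r, while no relation between Day 0 and Day 60 levels of the same heifer passed. These were 6 relations over 11 heifers on log2 TMM-normalised RPMM or log2 ratios, each with 100000 permutations and p-values adjusted over the 6. Between miR-10a and miR-10b on Day 60, r was 0.774 (permutation p = 0.00369, 0.0156 after adjustment). Spearman's rho there was 0.709 and missed the threshold (permutation p = 0.018, 0.054 after adjustment). Leaving out heifers 14 and 17 gave an r of 0.626. On Day 0 the members had an r of 0.652 (permutation p = 0.0253, 0.0506 after adjustment) and a rho of 0.518 (permutation p = 0.108, 0.163 after adjustment). Leaving out heifers 12 and 24 gave an r of 0.534. For the within-heifer changes r was 0.746 (permutation p = 0.0052, 0.0156 after adjustment) and rho was 0.718 (permutation p = 0.0167, 0.054 after adjustment). Leaving out heifers 14 and 17 gave an r of 0.666. Both members are scaled by the same factor within a library, and reads may pass between them.

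From Day 0 to Day 60 of the same heifer, miR-10b had an r of 0.097 (permutation p = 0.776, 0.776 after adjustment) and a rho of 0.309 (permutation p = 0.356, 0.428 after adjustment). Leaving out heifers 12 and 32 gave an r of 0.182. For miR-10a r was 0.214 (permutation p = 0.425, 0.638 after adjustment) and rho was 0.527 (permutation p = 0.101, 0.163 after adjustment). Leaving out heifers 12 and 24 gave an r of 0.255. The log2 ratio had an r of 0.15 (permutation p = 0.663, 0.776 after adjustment) and a rho of 0.155 (permutation p = 0.653, 0.653 after adjustment). Leaving out heifers 26 and 32 gave an r of -0.0107.

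The other HOX-cluster miRNAs were rare in plasma, and miR-196a and miR-196b rose on Day 60. The list held miR-10a, miR-10b, miR-196a, miR-196b and miR-615. miR-196 is known in the mouse to restrict Hoxb8, and miR-615 lies inside the span of HOXC5 in the RefSeq table. None of miR-196a, miR-196b and miR-615 reached 25 RPMM in any library, so 2 of the 5 were in the test above, and neither passed. Without any filter on low counts all 5 were tested among 844 miRNAs, of which 54 passed (6.4%), 37 higher (4.38%) and 17 lower (2.01%). Some low counts of other miRNAs in the table repeat those of another library and enter that fit. For the 5, counts matched the deposited RPMM of the same library within 0.2%. That check would miss a repeat held by both the counts and the RPMM, and libraries were not compared with each other. Of the 5, 2 were then higher and 0 lower. Their median log2 fold-change was 0.20, beside 0.10 over all 844.

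miR-196a, assigned in the files to chromosome 5 of bosTau4 from 28892142 to 28892163, ran from 0.270 through a median of 0.882 to 1.83 RPMM on Day 0. On Day 60 it ran from 0.749 in heifer 29 through a median of 6.45 to 14.2 RPMM in heifer 28. All but 2 of the Day 60 libraries lay above every Day 0 library, and 10 of 11 heifers were higher. These levels rest on 1 to 6 reads per Day 0 library and 3 to 161 reads per Day 60 library. The 3 reads were those of heifer 17, whose 9.86 RPMM is among the levels above every Day 0 library. The mean went from 0.963 ± 0.457 to 6.49 ± 4.34 RPMM (SD, n = 11), a log2 fold-change of 2.75 with an SE of 0.39 (edgeR FDR 5.2e-05 without the filter). By its p it ranked 2 of 844.

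miR-196b, on chromosome 4 from 71605745 to 71605767, lies by name next to HOXA10 and HOXA9 in the RefSeq table. It ran from 0.877 through a median of 3.25 to 5.64 RPMM on Day 0 and from 3.29 through a median of 7.78 to 17.5 RPMM on Day 60. It was higher in all 11 heifers, on RPMM and on TMM-normalised reads, and 9 Day 60 libraries lay above every Day 0 library. The share of all 844 miRNAs that reach such counts was not computed, for miR-196a or for miR-196b. Reads of miR-196b numbered 6 to 38 per Day 0 library and 1 to 162 per Day 60 library, the single read being in heifer 17. In that heifer the level went from 3.25 RPMM on 7 reads to 3.29 RPMM on 1 read, too few reads to give a direction. Its log2 fold-change was 1.62 with an SE of 0.29 (edgeR FDR 0.00158 without the filter). Under 17 other settings without a filter, all added with the results in view, the log2 fold-change ran from 2.49 to 3.03 for miR-196a and from 1.34 to 1.71 for miR-196b, and both passed in every one. miR-196a and miR-196b are near-identical as well, so reads may pass between them, and mature miR-196a is also made from another locus, inside HOXB9 on chromosome 19 in the RefSeq table.

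miR-615 stayed at the limit of detection. It had 0 reads in 8 of 22 libraries, which allows up to 0.235 to 9.86 RPMM in those libraries by a floor of 3 reads, and at most 7 reads in any other. The log2 fold-change, -0.26 with an SE of 0.74, missed the threshold (edgeR FDR 0.849 without the filter). Such limits cover counting error only.

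**Figure D4:**
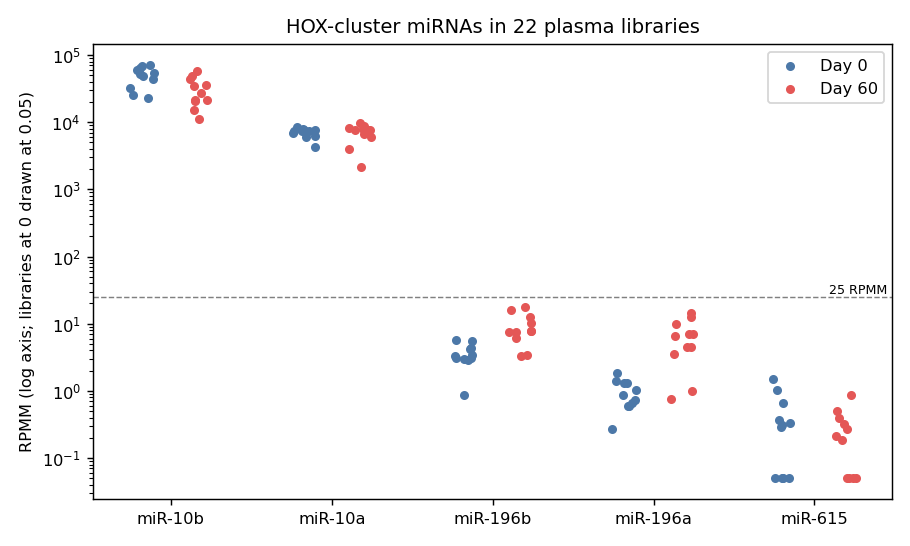
Level in RPMM, on a log axis, of 5 HOX-cluster miRNAs in 11 Day 0 and 11 Day 60 libraries, with libraries at 0 drawn at 0.05 and the filter of 25 RPMM as a dashed line. miR-10b and miR-10a lie above the line in every library and the other miRNAs below it, and 9 Day 60 points of miR-196a and of miR-196b lie above all of their Day 0 points.

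The miR-99 and miR-100 miRNAs, which share an ancestor with miR-10 and in human cells repress MTOR, had lower levels on Day 60 in 2 of 3 members tested, beside 17.9% of all tested miRNAs. miR-99b ran from 376 through a median of 1205 to 2099 RPMM on Day 0 and from 227 through a median of 378 to 775 RPMM on Day 60. The log2 fold-change of miR-99b was -1.21 with an SE of 0.29 (edgeR FDR 0.0108), 10 of 11 heifers were lower, and it passed under all 22 alternatives. miR-100 ran from 216 through a median of 561 to 880 RPMM on Day 0 and from 162 through a median of 270 to 378 RPMM on Day 60. TMM-normalised reads of miR-100 were lower in 8 of 11 heifers, a count reached or passed by 36.4% of tested miRNAs. The log2 fold-change of -0.79 with an SE of 0.27 (edgeR FDR 0.0334) was no longer past the threshold under 10 of 22 alternatives, scaling to miR-128 among them (edgeR FDR 0.0886). Of the heifers left out in turn, its call was lost without heifer 10, 11, 14, 17, 24, 28 or 29, with an edgeR FDR of up to 0.0832. For miR-99a-5p the log2 fold-change was -0.46 with an SE of 0.25 (edgeR FDR 0.161), and 9 of 11 heifers were lower. The median of the 3 was -0.79, beside -0.06 over all 195 tested miRNAs, and the fold-change of miR-10b lay between those of miR-99a-5p and miR-100.

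**Figure D5:**
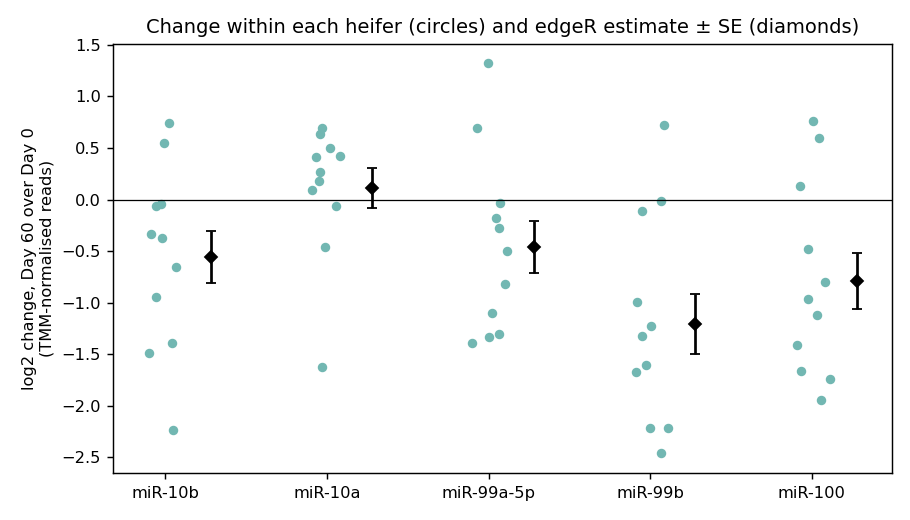
Log2 change from Day 0 to Day 60 on TMM-normalised reads within each of 11 heifers (circles) and the edgeR estimate with SE (diamonds) for miR-10b, miR-10a and 3 related miRNAs. The estimate is 0.11 for miR-10a and negative for the others, from -0.46 for miR-99a-5p to -1.21 for miR-99b.

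The miRNAs whose levels ran most like miR-10b over the 22 libraries were miR-127, miR-432, miR-660, miR-99a-5p and miR-380-3p. Likeness was the Spearman rho of log2 TMM-normalised RPMM, with a pseudocount of 1, against the other 194 tested miRNAs, and is given as a description, since levels share their library and its scaling. The rho was 0.894 for miR-127, 0.886 for miR-432, 0.863 for miR-660, 0.857 for miR-99a-5p and 0.843 for miR-380-3p. miR-127, miR-432 and miR-380-3p lie on chromosome 21 of bosTau4, in the imprinted region between DLK1 and DIO3, where miR-127 is known in the mouse to be made from the strand opposite Rtl1. Of the 5, miR-380-3p was past the threshold (log2 fold-change -0.64, edgeR FDR 0.0280), and the other four had log2 fold-changes from -0.52 to -0.43. The likeness to miR-127 was also seen within Day 0 (rho 0.791), within Day 60 (rho 0.864) and in the within-heifer changes (rho 0.855). On RPMM without TMM, 4 of these 5 were again among the 5 most like miR-10b.

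The most opposed miRNAs were miR-18a (rho -0.894) and miR-20a (rho -0.868), products of the miR-17~92 transcript of proliferating cells, both on chromosome 12. Both were higher on Day 60, by 0.66 for miR-18a and 0.77 for miR-20a on the log2 scale (edgeR FDR 0.0220 each).

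No miRNA ran as closely with miR-10a. The highest rho were 0.579 for miR-30a-5p, 0.532 for miR-143 and 0.504 for miR-27b, followed by 0.475 for miR-1296 and 0.452 for miR-2284y, and the lowest were -0.523 for miR-505 and -0.512 for miR-4532, a row the files annotate by its human homologue. On RPMM without TMM, 1 of these 5 stayed among the 5 most like miR-10a. miR-10b came 16 in the order for miR-10a (rho 0.382), and miR-10a came 64 in the order for miR-10b. Without TMM, on RPMM, miR-10b came 3 in the order for miR-10a (rho 0.526), and miR-10a came 54 in that for miR-10b. In the within-heifer changes the rho of the members was 0.718, beside 0.536 for miR-27b and 0.373 for miR-30a-5p with miR-10a.

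Cell markers were read in the same fit, in which 17.4% of all tested miRNAs were higher and 17.9% lower on Day 60. Of 3 red cell miRNAs (miR-451, miR-144 and miR-486), 1 was higher on Day 60, miR-451 (log2 fold-change 0.79, edgeR FDR 0.0425), and their summed level ran from 66967 to 326751 RPMM on Day 0 and from 121309 to 359251 RPMM on Day 60, with a higher sum in 6 of 11 heifers. The study screened its plasma for haemolysis by the ratio of miR-451 to miR-23a, also on days not sequenced. It reported that most samples were free of haemolysis. Here the ratio was taken on sequencing reads, and the study's cutoff was not applied to it. This read ratio had a median of 1.83 on Day 0 and 8.56 on Day 60. Of the 11 heifers, 9 had a higher read ratio on Day 60 (exact sign-flip permutation test, two-sided p = 0.00488). miR-23a itself was lower on Day 60 (log2 fold-change -1.18, edgeR FDR 0.00837). With the red cell miRNAs taken out of the library totals (an alternative added with the results in view), miR-10b had a log2 fold-change of -0.69 (edgeR FDR 0.0283). With plain library totals it was -0.75 (edgeR FDR 0.0302), so miR-10b passed with either total. Measured from the median of all tested miRNAs, miR-10b lay at -0.50 with either total. Of 6 leukocyte miRNAs 3 were higher and 0 lower (summed level 32566 to 47486 RPMM on Day 0 and 34657 to 68815 RPMM on Day 60, higher in 8 of 11 heifers), and miR-223 had a log2 fold-change of -0.19 (edgeR FDR 0.418). Of the 2 smooth muscle miRNAs miR-143 was higher (10068 to 24377 RPMM summed on Day 0 and 10478 to 215306 RPMM on Day 60, higher in 9 of 11 heifers). Of 3 platelet and endothelial miRNAs 0 passed (4928 to 15180 RPMM summed on Day 0 and 1942 to 14610 RPMM on Day 60, higher in 3 of 11 heifers). Of 3 liver miRNAs 1 was tested and did not pass (33703 to 81111 RPMM summed on Day 0 and 21806 to 77692 RPMM on Day 60, higher in 4 of 11 heifers). Of 4 heart and skeletal muscle miRNAs 1 was tested and did not pass (24.6 to 2232 RPMM summed on Day 0 and 43.8 to 9865 RPMM on Day 60, higher in 5 of 11 heifers). Liver miR-122 and the muscle miRNAs miR-1, miR-206 and miR-208a did not reach the filter, the muscle miRNAs with means of at most 11.8 RPMM on either day. The mean of miR-122 was 50.1 ± 37.5 RPMM on Day 0 and 2122 ± 6873 RPMM on Day 60 (SD, n = 11), a very uneven level on Day 60. Its log2 fold-change was 0.26 (edgeR FDR 0.801 without the filter). In that fit without the filter, 4.38% of all 844 miRNAs were higher, and miR-1 and miR-206 were among them. The log2 fold-change was 2.38 for miR-1 (edgeR FDR 0.0242) and 3.48 for miR-206 (edgeR FDR 0.0139), each higher in 8 of 11 heifers. It was -0.09 for miR-208a (edgeR FDR 0.946) and 0.03 for miR-133a (edgeR FDR 0.984), and neither passed. The part of these cells in the levels of miR-10a, miR-10b, miR-196a and miR-196b was not tested.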

How the data were processed

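Small RNA from plasma was sequenced from TruSeq libraries. The authors assigned reads to miRBase with sRNAbench on bosTau4, using Bowtie 0.12.9 per the labels. They deposited read counts per mature miRNA, used for all tests, and RPMM values in which bovine rows and rows of human homologues are scaled separately. For the 8 miR-10, HOX-cluster and related miRNAs, counts rescaled by 1 factor per library matched the deposited RPMM within 0.2% in all 22 libraries. No sequence table was used here.

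Libraries were paired by the animal number of the labels. Deviations from the day means correlated at a mean of 0.141 within animals and -0.00628 between animals. Within animals the correlation ran from -0.314 to 0.583, and 5 of the 11 Day 60 libraries were closest to the Day 0 library of their own animal. Tests on counts used edgeR 4.0.16 in R 4.3.3 over the whole table, and alternatives limma 3.58.1 and DESeq2 1.42.0. Permutations used numpy 2.4.6 and scipy 1.17.1. Named miRNAs were the members, the HOX-cluster and miR-99/100 lists, abundance neighbours, the 5 highest and 2 lowest in likeness to each member, miR-128 and cell markers. miR-196a, miR-196b and miR-615, below the filter, were described after their values were seen. Members and lists were chosen with earlier results of these data known. The reported edgeR fit, with the filter, was tested on simulated counts that held no differences between heifers. The fits without a filter and the other scalings were not tested in this way.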

Additional observations from a re-analysis of the deposited data

How the results depend on the processing

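The ratio of miR-10b to miR-10a kept its direction and stayed past the threshold under all 13 alternatives, with 10 reads added to each count, with libraries permuted between days, and without each heifer in turn (-0.75 to -0.56). miR-10b kept its direction under all 22 alternatives (edgeR, limma or DESeq2 FDR 0.0283 to 0.301) and passed in 6: library totals (-0.75), upper quartile scaling (-0.73), the DESeq2 test (-0.50), library totals without red cell miRNAs (-0.69), and without heifer 31 or 32, with a range of -0.69 to -0.41 over the heifers left out. miR-10a passed under none (FDR 0.129 to 0.926) and changed sign with library totals (-0.075), upper quartile scaling (-0.049) and library totals without red cell miRNAs (-0.026), with a range of 0.05 to 0.26 over the heifers left out. The number of miRNAs past the threshold was 35 to 97 over the heifers left out, with 44 for heifer 10, 43 for heifer 11, 35 for heifer 28 and 97 for heifer 32. The totals without red cell miRNAs, and the 17 other settings without a filter for miR-196a, miR-196b and miR-615, were chosen after seeing the data. Without a filter on low counts 37 were higher and 17 lower. miR-615 turned from -0.26 to 0.060 when heifer 14 was dropped (lowest value over heifers -0.76). Without pairing (no replicate block) miR-10b had a log2 fold-change of -0.48 (edgeR FDR 0.130), miR-10a one of 0.18 and the ratio one of -0.66 (permutation p = 0.00232), 83 miRNAs passed, and the calls on both members and the ratio stayed as they were. The 5 miRNAs most like miR-10a were not stable, with 1 shared between TMM-normalised and plain RPMM. Other causes of these differences were not tested. Depth limits miR-615, miR-196a and miR-196b.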
